A study of Mus musculus with 52 samples.

Results

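The 36 mouse genes described here encode the lysosome's proton pump, membrane proteins, hydrolases, cholesterol carriers and ion channels, and the transcription factors of the MiT/TFE family. They were taken by gene name: 20 subunits and accessory proteins of the vacuolar H+-ATPase (V-ATPase), the membrane proteins Lamp1, Lamp2 and Gpnmb, the hydrolases Hexa, Gusb, Glb1, Gaa and Lipa, the cholesterol carriers Npc1 and Npc2, the mucolipin channels Mcoln1, Mcoln2 and Mcoln3, and the factors Tfeb, Tfe3 and Mitf. All 36 were found, each on 1 line of the 55401 mouse genes of the count table.

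Lysosomes digest material delivered by endocytosis, phagocytosis and autophagy, and their acid pH is made by the V-ATPase. This pump joins a membrane-bound V0 sector, which carries the protons, to a cytosolic V1 sector, which hydrolyses ATP, and V1 can detach and reattach. TFEB, TFE3 and MITF are basic helix-loop-helix leucine-zipper factors that bind E-boxes of the type CACGTG (the CLEAR element) in many lysosomal genes, and their activity is set mainly by phosphorylation and nuclear entry rather than by their mRNA level. In the nervous system neurons use the same pump to fill synaptic vesicles, while microglia, the resident macrophages, and invading macrophages are rich in degradative lysosomes.

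The libraries are poly(A) RNA of mouse spinal cord, cortex and muscle, with 3 arms in each tissue. The wild-type arm (FVB_WT) was FVB/NJ mice given vehicle. The vehicle-treated transgenic arm (PFN1_C71G, Vehicle) was mice that carry a transgene for human profilin-1, a regulator of actin, with the change C71G that is known from inherited ALS, a disease of motor neurons, also given vehicle. The treated arm (PFN1_C71G, amiR_ATXN2) was mice with the same transgene given an adeno-associated virus (AAV) that encodes an artificial microRNA against Atxn2, the gene of the RNA-binding protein ataxin-2. No arm received a control vector, so vector and knockdown cannot be told apart. The promoter and line of the transgene and the dose, route and age at injection are not given in the sources used here. Each arm had 6 libraries of both sexes in each tissue, but for 5 of the wild type in cortex and 5 of the vehicle-treated transgenic arm in muscle. All wild-type mice were 36 weeks old, and 11 of the 35 transgenic libraries came from mice of 38 or 39 weeks. The labels do not say that the libraries of a tissue came from separate mice or which tissues came from the same mouse, so p-values measure the spread between these libraries.

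Total counts ranged from 66.5 to 111.9 M per library, which leaves the spread between libraries, not counting, as the main error of all but the lowest members. The RNA integrity number ranged from 7.1 to 8.3. Human PFN1 was at 170.2 to 1613 CPM (counts scaled to a library of fixed size) in transgenic libraries and at most 0.0143 CPM in wild type. In spinal cord it was at 633 to 736 CPM with vehicle and at 609, 879, 606, 1041, 1165 and 788 CPM in treated libraries 1 to 6. Whether this difference in transgene RNA bears on the members was not tested. Unscaled CPM of Atxn2 in spinal cord were 115 to 124 in wild type, 106 to 115 with vehicle and 68.2 to 77.6 with the vector, and in muscle, where the treated arm held 1 to 5 counts of the vector's WPRE element, 61.1 to 69.3 with vehicle and 55.9 to 70.0 with the vector. In 4 spinal cord libraries (vehicle-treated transgenic 5 and 6, treated 1 and 2) the library name states the other treatment than the title. WPRE counts were 0 in the first pair and 3200 and 3351 in the second, as the titles have it, and the titles were used. The summed CPM of 8 neuronal genes was 3661 to 7153 in spinal cord and cortex against 5.61 to 9.53 in muscle, and that of 8 muscle fibre genes was 48085 to 84141 in muscle. In the nervous tissues the muscle fibre sum stayed at or below 65.6 CPM, except for treated spinal cord library 2, at 389 CPM.

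RefSeq promoter windows on GRCm38.p6, from 250 bases before to 50 bases after the transcription start, were found for 29 of the 36 members. Both strands were searched for CACGTG, for the longer CLEAR core TCACGTGA, which contains it, and for the M-box TCATGTG, which does not. CACGTG was in 9 of 29 members' windows (31.0%) against 8.09% of the 27025 symbols with a window. TCACGTGA was in 4 (13.8%) against 1.12%, and TCATGTG in 1 (3.45%, Atp6v0c) against 4.31%. The sequences that follow, 5′ to 3′ on the gene's strand with the motif in capitals, show where the letters stand in the genes with the longer core and in others that return below. A match is a description of letters and not a binding site. The starts are those of RefSeq. In the GENCODE annotation the sites of Atp6v1a, Atp6v0e and Mcoln2 and the TCACGTGA of Mcoln1 lie inside the gene and not before it.
Atp6v1a (chr16:44139373-44139402, minus strand): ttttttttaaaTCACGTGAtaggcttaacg
Atp6v0d1 (chr8:105566050-105566079, minus strand): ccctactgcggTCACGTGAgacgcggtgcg
Atp6v0e (chr17:26676387-26676416, plus strand): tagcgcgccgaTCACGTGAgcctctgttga
Mcoln1, TCACGTGA (chr8:3500462-3500491, plus strand): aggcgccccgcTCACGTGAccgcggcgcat
Mcoln1, CACGTG (chr8:3500436-3500465, plus strand): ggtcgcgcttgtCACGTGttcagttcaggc
Glb1 (chr9:114401018-114401047, plus strand): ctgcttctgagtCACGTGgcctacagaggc
Gaa (chr11:119267811-119267840, plus strand): tttctgtgcgatCACGTGtttgactctgac
Mcoln2 (chr3:146150090-146150119, plus strand): tccctgagctcaCACGTGgaccccattctg

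Lamp1 held 4 copies of CACGTG within its last 61 bases before the start, the most of any member, while the window of Gpnmb held none of the 3 motifs. The 250 bases before the start of each are given to set them side by side.
Lamp1 (chr8:13158911-13159160, plus strand): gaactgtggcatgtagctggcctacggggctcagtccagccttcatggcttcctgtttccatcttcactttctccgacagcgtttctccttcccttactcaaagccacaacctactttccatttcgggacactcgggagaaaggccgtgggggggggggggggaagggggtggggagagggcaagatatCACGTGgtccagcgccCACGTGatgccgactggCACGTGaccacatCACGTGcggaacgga
Gpnmb (chr6:49036268-49036517, plus strand): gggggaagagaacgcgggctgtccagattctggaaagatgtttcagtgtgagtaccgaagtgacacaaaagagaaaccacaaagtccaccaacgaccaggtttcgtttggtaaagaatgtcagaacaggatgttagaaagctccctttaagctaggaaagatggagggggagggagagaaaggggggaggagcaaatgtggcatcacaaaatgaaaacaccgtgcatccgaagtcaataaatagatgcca

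In spinal cord, 17 of the 36 genes were higher and 8 lower in vehicle-treated transgenic than in wild-type mice (edgeR's quasi-likelihood test, Benjamini-Hochberg adjusted p under 0.05 over all genes). Expression is given as CPM after TMM scaling, means are ± SD over the libraries of an arm, and log2 changes are those of the fit with their SE. Of the 20307 genes tested, 18.8% were called higher and 17.9% lower, so the members' share was above the background among rises and near it among falls. The libraries of the arms did not overlap for 22 of the 36 members, where 11.8% of all genes did not overlap with the transgenic arm higher and 11.1% with it lower. The median log2 change was 0.08 over the members and -0.00045 over all genes. Rises were found in 4 of 5 hydrolases, all 3 membrane proteins, 2 of 3 mucolipins, 1 of 2 cholesterol carriers, 4 of 9 V0 genes and 2 of 3 MiT/TFE factors. Falls were in the V-ATPase alone among these lists, with 7 of 9 V1 genes and 1 of 9 V0 genes. The 17 rises and the 22 members without overlap include Atp6v0d2, Mcoln2 and Mcoln3. These 3 passed the filter on low counts only through the transgenic arms, so their rises support nothing. Both mucolipins that rose and 1 of the 4 V0 genes are among them. In bulk tissue a change in the number of cells of a type and a change in RNA per cell cannot be told apart.

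**Figure D1:**
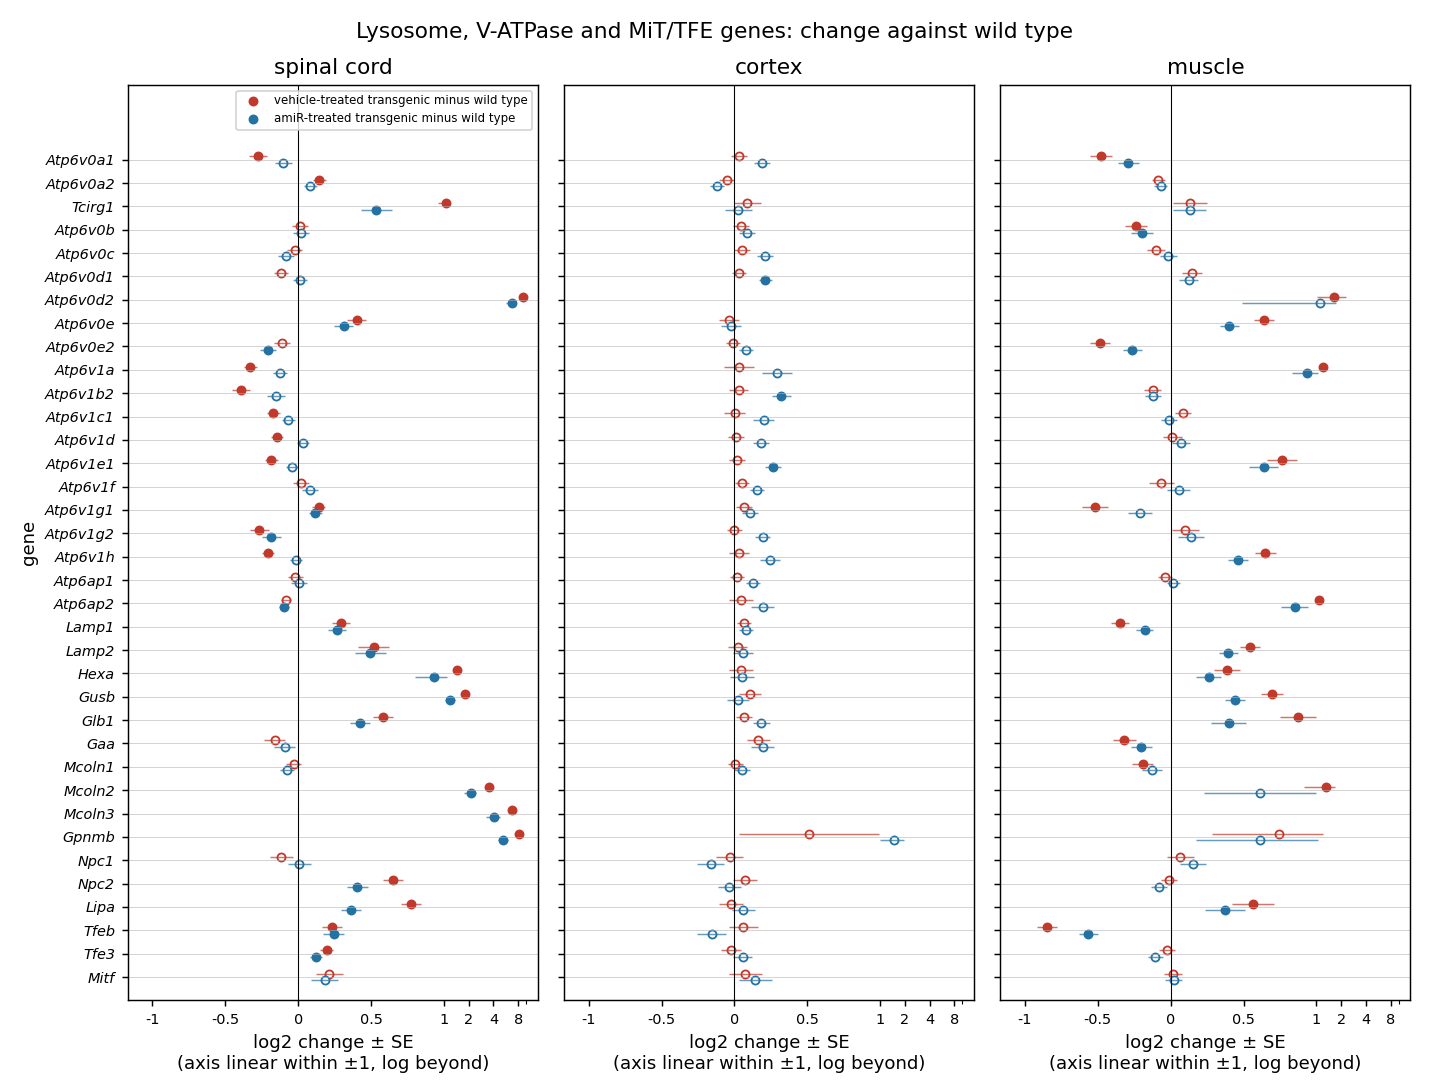
Log2 change ± SE of each member against wild type for vehicle-treated (red) and amiR-treated (blue) transgenic mice in the 3 tissues; filled points passed the adjusted p of 0.05, the axis is linear between -1 and 1 and logarithmic beyond, and members that were not tested in a tissue have no point. In spinal cord the largest value is Atp6v0d2 at 9.07, and in muscle Atp6v1a stands at 1.21 and Tfeb at -0.85.

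The 4 largest changes were in genes near the limit of detection in wild-type spinal cord. Atp6v0d2 encodes the d2 isoform of the V0 stalk, known from osteoclasts and macrophages. It lay at 0.0119 to 0.0804 CPM (median 0.0540) in wild type, which is 1 to 7 counts a library, and at 22.7 to 30.6 CPM (median 24.8) in vehicle-treated transgenic libraries (log2 change 9.07, SE 0.90, adjusted p = 9.09e-07). Gpnmb, a transmembrane glycoprotein of lysosomes and melanosomes, lay at 0.250 to 0.792 CPM (median 0.71) in wild type and 155 to 212 CPM (median 183) with the transgene (log2 change 8.20, SE 0.75, adjusted p = 4.29e-07). For both genes the arms were far apart and did not overlap. At these low wild-type counts the fitted change of Atp6v0d2 rests on few reads and moves with the prior count of the fit.

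Mcoln3 and Mcoln2 encode TRPML3 and TRPML2, cation channels of endosomes and lysosomes whose paralog Mcoln1 is expressed broadly. Mcoln3 had 0 to 6 counts a library in wild type and 239 to 366 with the transgene, 0 to 0.0689 against 2.36 to 4.14 CPM (log2 change 6.78, SE 0.77, adjusted p = 3.31e-06). Mcoln2 lay at 0.0222 to 0.0734 CPM (median 0.0590) in wild type and 0.351 to 0.744 CPM (median 0.665) with the transgene (log2 change 3.52, SE 0.34, adjusted p = 5.93e-07). Mcoln1 lay at 60.3 ± 3.40 CPM in wild type and 58.9 ± 3.65 with the transgene (SD, n = 6 each; log2 change -0.03, SE 0.05, adjusted p = 0.635). Per kilobase of exon, Mcoln1 made 99.7% of the summed mucolipin level in wild type and 86.7% in the vehicle-treated transgenic arm, where Mcoln3 made 11.3% and Mcoln2 2.06%. No wild-type library reached the minimum of the filter on low counts in Atp6v0d2, Mcoln2 or Mcoln3. These 3 members were tested only because the transgenic arms were high, so they had to differ and their calls support nothing. Without them 14 of 33 members were higher and 8 lower.

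**Figure D2:**
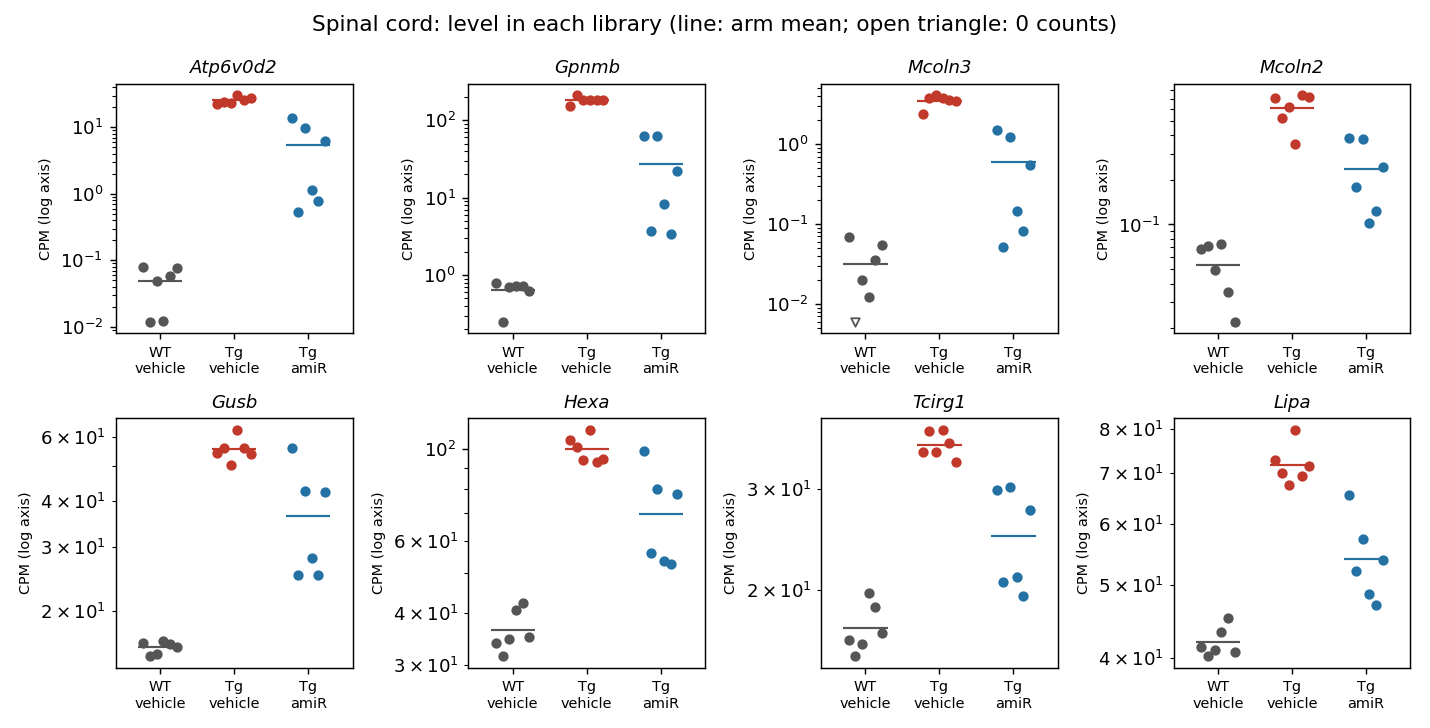
CPM of 8 members in each spinal cord library on log axes, with a line at the arm's mean and an open triangle for a library with 0 counts. The 6 vehicle-treated transgenic libraries of Atp6v0d2 lie at 22.7 to 30.6 CPM and those of wild type at 0.0119 to 0.0804, while the treated arm spreads from 0.525 to 13.9.

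Among the hydrolases, Gusb (beta-glucuronidase) and Hexa (the alpha subunit of beta-hexosaminidase) changed most. Gusb lay at 15.1 to 16.6 CPM (median 16.2) in wild type and 50.4 to 62.8 CPM (median 54.9) in vehicle-treated transgenic spinal cord (log2 change 1.80, SE 0.16, adjusted p = 3.77e-07). Hexa lay at 31.5 to 42.3 CPM (median 34.9) against 92.8 to 111 CPM (median 97.9) (log2 change 1.45, SE 0.14, adjusted p = 5.69e-07). The lowest transgenic library of each was above every wild-type library. Lipa, the acid lipase that frees cholesterol from its esters, rose from 42.0 ± 1.90 to 71.9 ± 4.32 CPM (log2 change 0.77, SE 0.07, adjusted p = 3.36e-07), and Glb1, the acid beta-galactosidase, from 25.6 ± 2.05 to 38.3 ± 2.14 CPM (log2 change 0.58, SE 0.07, adjusted p = 5.67e-06). Gaa, the acid alpha-glucosidase of glycogen, did not pass the test, at 319 ± 24.9 and 286 ± 28.7 CPM (log2 change -0.16, SE 0.07, adjusted p = 0.0901). Hexa shares 12.8% of its exon bases with Tmem202, and without a known strand setting of the counting their reads cannot be told apart there.

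Lamp1 and Lamp2, the most abundant glycoproteins of the lysosomal membrane, both rose. Lamp1 lay at 517 to 686 CPM (median 593) in wild type and 681 to 801 CPM (median 727) with the transgene, with the highest wild-type library just above the lowest transgenic one (log2 change 0.29, SE 0.06, adjusted p = 0.00104). Lamp2 lay at 134 to 153 CPM (median 142) against 175 to 238 CPM (median 205), with no overlap (log2 change 0.52, SE 0.11, adjusted p = 0.00108). Per kilobase Lamp1 remained the higher of the pair, with 93.7% of their summed level in wild type and 92.7% with the transgene. Of the 2 proteins that carry cholesterol out of the lysosome, the soluble Npc2 rose from 94.8 ± 8.48 to 149 ± 7.50 CPM (log2 change 0.65, SE 0.07, adjusted p = 2.59e-06), while the membrane protein Npc1 lay at 154 ± 18.2 and 142 ± 10.4 CPM (log2 change -0.12, SE 0.08, adjusted p = 0.261).

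The 3 isoforms of the V0 a subunit, which anchors the proton path, went different ways. Atp6v0a1, the isoform typical of neurons, lay at 381 to 455 CPM (median 417) in wild type and 315 to 363 CPM (median 342) with the transgene (log2 change -0.28, SE 0.06, adjusted p = 0.00156). Atp6v0a2 lay at 102 to 113 CPM (median 107) against 114 to 129 CPM (median 116) (log2 change 0.14, SE 0.05, adjusted p = 0.0186). Tcirg1, the a3 isoform known from osteoclasts and macrophages, lay at 15.3 to 19.7 CPM (median 16.6) against 33.5 to 38.1 CPM (median 35.5) (log2 change 1.06, SE 0.11, adjusted p = 9.68e-07). In each of the 3 genes the arms did not overlap. Per kilobase Atp6v0a1 made 76.4% of the a-subunit level in wild type and 67.3% with the transgene, and Tcirg1 4.49% and 10.04%. The call of Atp6v0a2 was lost without the mice older than 36 weeks, without a filter on low counts, and without vehicle-treated transgenic library 3 or 4.

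For the d subunit no split is supported, since Atp6v0d1 was not called and Atp6v0d2 was tested only through the transgenic arms. Atp6v0d1, the broadly expressed isoform, lay at 140.2 to 159.6 CPM (median 148) in wild type and 126 to 147 CPM (median 138) with the transgene and was not called (log2 change -0.12, SE 0.05, adjusted p = 0.0674), while Atp6v0d2 went from 0.0215% to 11% of the summed d level per kilobase. Atp6v0e rose from 18.2 ± 0.864 to 24.1 ± 1.03 CPM (log2 change 0.40, SE 0.07, adjusted p = 0.00012), and its paralog Atp6v0e2 lay at 154 ± 7.13 and 142 ± 13.8 CPM and was not called (log2 change -0.11). The proton-carrying ring subunits Atp6v0b and Atp6v0c had log2 changes of 0.01 and -0.02 and were not called. The accessory proteins Atp6ap1 and Atp6ap2 had -0.02 and -0.08, also without a call.

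The V1 sector moved the other way from the hydrolases. Atp6v1b2, the B2 subunit of the catalytic head expressed in brain, lay at 582 to 641 CPM (median 605) in wild type and 442 to 481 CPM (median 466) with the transgene (log2 change -0.39, SE 0.06, adjusted p = 7.82e-05). Atp6v1a, the catalytic A subunit, lay at 533 ± 10.2 against 426 ± 36.5 CPM (log2 change -0.33, SE 0.05, adjusted p = 3.3e-05). Also lower were Atp6v1g2, the neuronal G2 subunit (-0.27, SE 0.07), Atp6v1h (-0.21, SE 0.04), Atp6v1e1 (-0.18, SE 0.04), Atp6v1c1 (-0.17, SE 0.04) and Atp6v1d (-0.15, SE 0.04), with adjusted p from 0.000521 for Atp6v1h to 0.00862 for Atp6v1d. For these 7 genes no transgenic library overlapped the wild-type range. Atp6v1g1, the broadly expressed G1 subunit, was higher instead (log2 change 0.14, SE 0.04, adjusted p = 0.0141), and Atp6v1f was not called (0.02). With library size alone as the scaling, which moved the median of all genes from -0.00045 to 0.096 and the share of all calls that were higher from 51.2% to 72.9%, 18 members were higher and 5 lower. The calls of Atp6v1c1, Atp6v1d and Atp6v1e1 were then lost and none of the 9 V1 genes changed sign, and with the 4 conflicting libraries grouped by library name these calls and that of Atp6v1h were lost. Without mice older than 36 weeks the call of Atp6v1g1 was lost, as it was without vehicle-treated transgenic library 3.

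**Figure D3:**
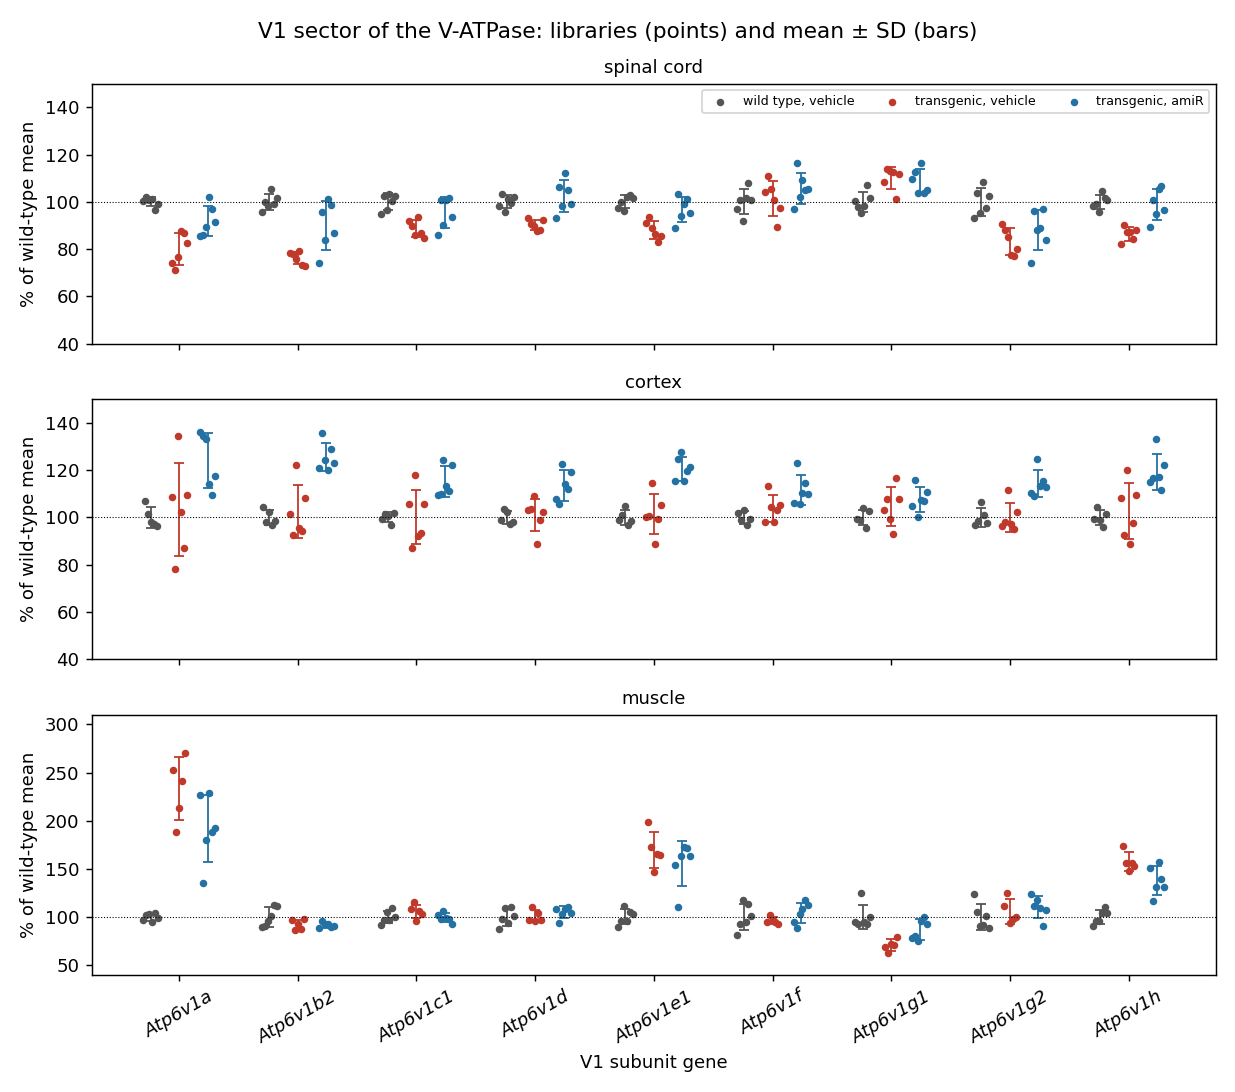
Level of the 9 V1 genes in each library as a percent of the wild-type mean of the tissue, with bars for the mean ± SD of each arm. In spinal cord the vehicle-treated transgenic points of Atp6v1b2 lie between 72.8% and 79.1%, in cortex the treated points of Atp6v1b2 lie between 120.1% and 135.9%, and in muscle those of Atp6v1a with vehicle lie between 188% and 271%; the muscle axis has its own range.

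The MiT/TFE factors had small positive log2 changes, between 0.19 and 0.23, and 2 of the 3 passed the test. Tfeb lay at 12.7 to 16.0 CPM (median 13.6) in wild type and 14.6 to 18.2 CPM (median 16.7) in vehicle-treated transgenic spinal cord, with overlapping arms (log2 change 0.23, SE 0.07, adjusted p = 0.0151). Its call was lost without mice older than 36 weeks and without vehicle-treated transgenic library 3. Tfe3 lay at 33.8 to 37.5 CPM (median 35.5) against 38.4 to 44.5 CPM (median 40.1), without overlap (log2 change 0.19, SE 0.04, adjusted p = 0.00146). Mitf lay at 12.5 to 15.6 CPM (median 13.7) against 13.4 to 18.4 CPM (median 16.7) and was not called (log2 change 0.21, SE 0.09, adjusted p = 0.0852). Per kilobase the 3 factors held 29.0%, 44.8% and 26.2% of their summed level in wild type and 29.4%, 44.3% and 26.3% with the transgene, so the shares stayed within 0.5 percentage points. Members with CACGTG in their window gave 4 rises and 1 fall of 9, and those without it 10 rises and 4 falls of 20. Over all genes 18.8% were called higher and 17.9% lower. The rises with CACGTG include Mcoln2 and those without it Mcoln3, which were tested only through the transgenic arms and support nothing.

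Other genes of the lysosomal system were counted by list in the same test, where 18.8% of all genes were called higher and 17.9% lower. Of 31 further hydrolases and their cofactors, 24 were higher and 2 lower, with a median log2 change of 0.39. The smallest adjusted p in this list belonged to Naglu (6.99 ± 0.635 to 18.9 ± 1.09 CPM, log2 change 1.43), which degrades heparan sulfate, to the acid nuclease Dnase2a (4.12 ± 0.305 to 11.2 ± 0.790 CPM, 1.44) and to Grn, which encodes progranulin (39.8 ± 3.11 to 161 ± 11.2 CPM, 2.02). Of 19 further membrane proteins 9 were higher and 2 lower, led by Laptm5 (2.02), Cd63 (1.56) and the calcium channel Tpcn2 (0.85). Of 9 further V-ATPase subunits and assembly factors 1 was higher (Ccdc115, 0.25) and 2 lower, Wdr7 (-0.53) and Dmxl2 (-0.50), the partners of the complex that puts V1 and V0 together. Of 9 genes of mannose 6-phosphate tagging and sorting 3 were higher, M6pr (0.19) and Nagpa (0.33) among them, and 2 lower, Gga3 (-0.23) among them.

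Among 18 regulators of mTORC1 and TFEB at the lysosome, 4 were higher and 6 lower, against 18.8% and 17.9% of all genes. Tfec, the remaining MiT/TFE gene, rose from 0.0244 ± 0.0108 to 0.153 ± 0.0444 CPM (log2 change 2.57, SE 0.35, adjusted p = 2.26e-05). Its wild-type level lay under the minimum of the filter on low counts. Tfec was thus tested only through the transgenic arms, and its call supports nothing. Fnip2, a partner of folliculin, rose from 20.3 ± 1.249 to 37.2 ± 5.21 CPM (log2 change 0.87, SE 0.13, adjusted p = 4.25e-05). Rragb, a Rag GTPase expressed in neurons, was lower (log2 change -0.31, SE 0.05, adjusted p = 0.000132). Of 10 autophagy genes known as targets of these factors none was higher and 4 were lower, among them Uvrag (-0.32), Map1lc3b (-0.26) and Vps11 (-0.14).

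Markers of cell types moved in the same libraries, where 18.8% of all genes were called higher and 17.9% lower. Of 12 microglia and macrophage genes 11 were higher with the transgene, and their summed CPM was 216 to 304 in wild type and 814 to 967 in the vehicle-treated transgenic arm. Of 8 neuronal genes 7 were lower (sums 5035 to 5690 against 3890 to 4154), and all 8 motor neuron genes were lower (387 to 444 against 176 to 293). Of 8 astrocyte genes 4 were higher and 1 lower, and of 7 T cell genes 6 were higher, at sums of 0.512 to 1.24 against 1.43 to 2.56 CPM. Sums this low lie near the limit of detection, where a gene can pass the filter through the transgenic arms alone. The 5 genes of melanocytes, pigment cells that also express Gpnmb and Mitf, summed to 0.919 to 1.28 CPM in wild type and 1.07 to 2.01 CPM with the transgene. No gene of these lists was at 0 in all spinal cord libraries of an arm. What these cell types contributed to the changes of the members was not tested.

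Within transgenic spinal cord, treatment with the vector was accompanied by lower levels of 8 members and higher levels of 4, where 2.19% of the 20307 genes were called lower and 2.92% higher. The 8 lower genes had all been higher with the transgene, and the 4 higher ones were V1 genes that had been lower with it. These comparisons share the vehicle-treated transgenic libraries, so opposite signs are not independent of each other. The arms did not overlap for 6 members, against 1.07% of all genes with the treated arm lower and 1.16% with it higher. Mcoln3 is among these 6, and Mcoln2 and Mcoln3 are among the 8 lower members. Both reached the count minimum in all 6 libraries only in the vehicle arm, where they are high, so their falls support nothing. Without them 6 of 34 members were lower and 4 higher. The median log2 change was -0.03 over the members and 0.0029 over all genes.

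The treated libraries were far apart from each other in the genes with the largest changes. Gpnmb was at 61.7, 3.69, 62.5, 8.27, 3.38 and 22.2 CPM in treated libraries 1 to 6, against 155 to 212 with vehicle (log2 change -2.97, SE 0.57, adjusted p = 0.011). Atp6v0d2 was at 13.9, 0.525, 9.88, 1.13, 0.785 and 6.19 CPM, against 22.7 to 30.6 (log2 change -2.41, SE 0.59, adjusted p = 0.0297). Mcoln3 was at 1.5, 0.0512, 1.22, 0.148, 0.0827 and 0.555 CPM, against 2.36 to 4.14 (log2 change -2.72, SE 0.57, adjusted p = 0.0158). In all 3 genes treated libraries 1, 3 and 6 were the highest of their arm and 2, 4 and 5 the lowest, and the highest still lay under every vehicle library. Mcoln2 fell from 0.610 ± 0.152 to 0.235 ± 0.122 CPM (SD, n = 6 each; log2 change -1.42, SE 0.28, adjusted p = 0.0123), with overlapping arms. Mcoln2 and Mcoln3 reached the count minimum in all 6 libraries only in the vehicle arm, where they are high, and without them 6 members were lower.

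The other falls were smaller. Lipa lay at 65.5, 52.1, 57.3, 48.6, 47.0 and 53.8 CPM in treated libraries 1 to 6 and 67.5 to 79.9 with vehicle (log2 change -0.41, SE 0.07, adjusted p = 0.00508). Tcirg1 lay at 29.9, 20.7, 30.3, 21.1, 19.5 and 27.6 CPM against 33.5 to 38.1 (log2 change -0.53, SE 0.11, adjusted p = 0.0122). Hexa lay at 98.5, 55.9, 80.1, 53.4, 52.7 and 77.5 CPM against 92.8 to 111 (log2 change -0.52, SE 0.14, adjusted p = 0.0361), and Gusb at 56.0, 25.2, 42.8, 28.0, 25.1 and 42.4 CPM against 50.4 to 62.8 (log2 change -0.61, SE 0.16, adjusted p = 0.0363). Lipa and Tcirg1 did not overlap between the arms, while treated library 1 of Hexa and of Gusb lay inside the vehicle range. Lamp1, Lamp2, Glb1 and Npc2, which had risen with the transgene, were not called here, with log2 changes of -0.03, -0.02, -0.15 and -0.24 (adjusted p = 0.0549 for Npc2). Tfeb, Tfe3 and Mitf had 0.01, -0.07 and -0.03, also without a call.

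Of the V1 genes, Atp6v1h (log2 change 0.19, SE 0.04, adjusted p = 0.0149), Atp6v1d (log2 change 0.18, SE 0.04, adjusted p = 0.0222), Atp6v1a (log2 change 0.20, SE 0.05, adjusted p = 0.0239) and Atp6v1b2 (log2 change 0.24, SE 0.06, adjusted p = 0.0343) were higher with treatment. Atp6v1d alone of these did not overlap between the arms, and its lowest treated library lay just above its highest vehicle library. With library size alone as the scaling, none of these 4 was called and none changed sign, and the calls of Hexa and Gusb were lost too, which left 6 lower members. The share of all calls that were higher went from 57.2% to 40.3% under that scaling.

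None of these 12 calls was kept in every alternative. All were lost when the 4 libraries with conflicting labels were grouped by library name, against their WPRE counts, and only those of Gpnmb and Lipa held without mice older than 36 weeks, which leaves 4 libraries an arm in the transgenic arms. With the 4 conflicting libraries left out, 8 members were lower and 1 was higher: the calls of Mcoln2, Atp6v1b2, Atp6v1d and Atp6v1h were lost and Npc2 gained one. Without treated library 4 there were 5 calls and without treated library 5 there were 6, and without vehicle library 4 or 5 there were 7 each. Over all genes, the 18 fits that leave out 1 library gave 242 to 2539 calls, against 1037 with all libraries.

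Markers moved with the treated libraries too, where 2.19% of all genes were called lower and 2.92% higher. The summed CPM of the 12 microglia and macrophage genes was 978, 400, 791, 514, 461 and 735 in treated libraries 1 to 6, in the same order of high and low libraries as Gpnmb and Atp6v0d2 when libraries 1, 3 and 6 are set against 2, 4 and 5. Of the 12 genes, 1 was called lower with treatment (Cd68, -1.11) and none higher, with a median log2 change of -0.39. Of the motor neuron genes 3 of 8 and of the neuronal genes 2 of 8 were higher. The part of these cells in the members' changes was not tested.

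**Figure D4:**
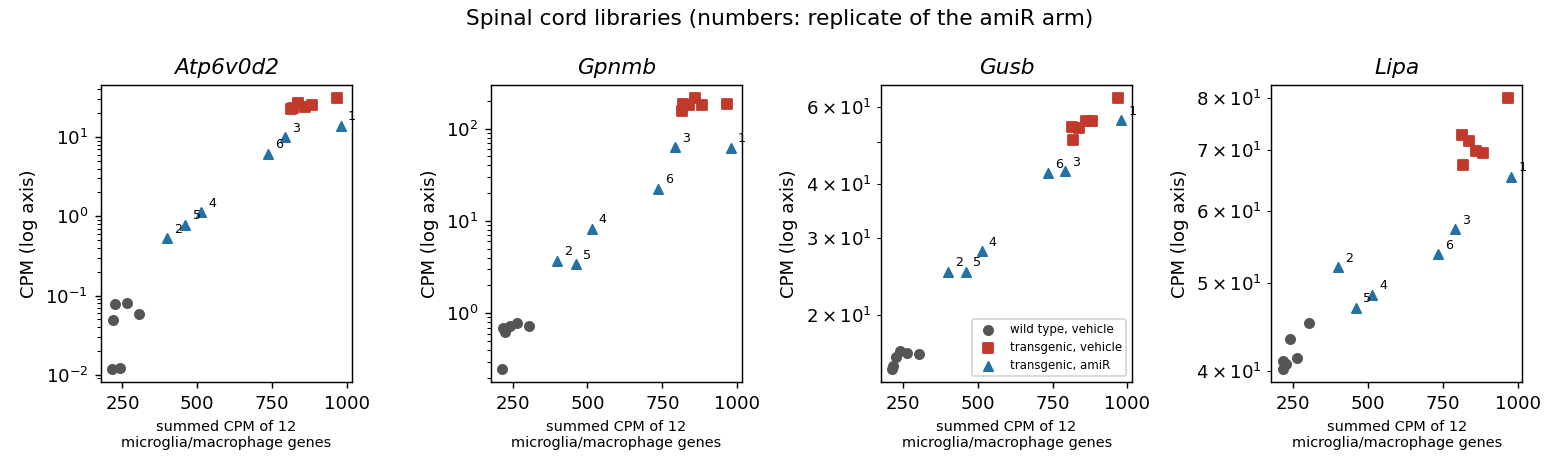
CPM of 4 members (log axes) against the summed CPM of 12 microglia and macrophage genes in each spinal cord library, with the replicate number beside the treated libraries. Treated libraries 2, 4 and 5 have marker sums of 400 to 514 CPM and lie under the other 3 treated libraries in all 4 genes.

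The wider lists are set against 2.19% of all genes called lower with treatment and 2.92% higher. Treatment gave 7 lower and 1 higher calls among the 31 further hydrolases, with Dnase2a (log2 change -0.61, SE 0.13, adjusted p = 0.0165), Naglu (log2 change -0.55, SE 0.12, adjusted p = 0.0206) and the acid ceramidase Asah1 (log2 change -0.25, SE 0.06, adjusted p = 0.0246) first. Of 19 further membrane proteins 3 were lower, Cln3 (-0.29), Tpcn2 (-0.35) and the cystine carrier Ctns (-0.24). Of 9 further V-ATPase and assembly genes Wdr7 was higher (0.41) and Ccdc115 lower (-0.17). Among the 18 regulators 3 were higher, with Mtor first (0.40, adjusted p = 0.00864), and among the 10 autophagy genes 2 were higher. None of the 9 sorting genes passed the test.

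Against wild type, treated transgenic spinal cord had 16 members higher and 3 lower, where 14.6% of genes were called higher and 11% lower. Higher were again Gusb (1.19, SE 0.16), Hexa (0.93, SE 0.14), Glb1, Lipa, Npc2, Lamp1, Lamp2, Tcirg1 (0.53, SE 0.11), Atp6v0e, Atp6v1g1, Tfeb and Tfe3, and the 4 genes that were scarce in wild type, from 2.10 for Mcoln2 to 6.66 for Atp6v0d2. Without Atp6v0d2, Mcoln2 and Mcoln3, which passed the filter only through the transgenic arms, 13 of 33 were higher. Lower were Atp6v0e2 (-0.21, SE 0.05), Atp6v1g2 (-0.18, SE 0.07) and Atp6ap2 (-0.10, SE 0.03). Of the 7 V1 genes lower with vehicle, Atp6v1g2 was the one called here, and Atp6v1a and Atp6v1b2 lay at -0.13 and -0.15 (adjusted p = 0.0566 and 0.0737). All 3 lower calls were lost with library size alone as the scaling, under which the share of calls that were higher went from 57.1% to 70.2%. The calls of Tfe3, Atp6v1g1, Atp6v1g2 and Atp6ap2 were each lost in 10 to 13 of the 18 fits that leave out 1 library. This comparison shares its wild-type libraries with the one in vehicle-treated mice.

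In muscle 12 of 35 members tested were higher with the transgene and 8 lower, where 25.7% of the 16949 genes were called higher and 24.8% lower, so neither share was far from the background. The arms did not overlap for 15 members, against 14.5% of genes with the transgenic arm higher and 14.3% with it lower. The member medians were 0.07 against 0.01 over all genes. Atp6v0d2 and Mcoln2, both called higher, passed the filter on low counts only through the transgenic arms, and without them 10 of 33 were higher. Mcoln3 was too scarce to be tested, at 0 to 3 counts a library in wild type and 0 to 2 with the transgene.

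The V1 sector was split in muscle. Atp6v1a lay at 20.0 to 22 CPM (median 21.3) in wild type and at 53.5, 39.8, 45.0, 51.1 and 57.3 CPM in the 5 vehicle-treated transgenic libraries (log2 change 1.21, SE 0.11, adjusted p = 4.43e-07). Atp6v1e1, the peripheral stalk subunit, lay at 67.2 to 83.5 CPM (median 74.5) against 149, 129.8, 110.3, 124 and 123 CPM (log2 change 0.76, SE 0.10, adjusted p = 1.6e-05), and Atp6v1h, which regulates the coupling of the sectors, at 12.6 to 15.4 CPM (median 13.9) against 24.2, 21.8, 20.5, 21.8 and 21.2 CPM (log2 change 0.65, SE 0.07, adjusted p = 2.61e-06). The accessory protein Atp6ap2, the prorenin receptor, lay at 11.7 to 13.5 CPM (median 12.8) against 33.9, 27.8, 23.7, 24.3 and 25.3 CPM (log2 change 1.09, SE 0.10, adjusted p = 3e-07). In these 4 genes every transgenic library was above every wild-type library. Atp6v1g1 was lower (log2 change -0.52, SE 0.09, adjusted p = 0.000172), and the other 5 V1 genes, Atp6v1b2, Atp6v1c1, Atp6v1d, Atp6v1f and Atp6v1g2, had log2 changes between -0.12 and 0.10 without a call. The window of Atp6v1a holds the TCACGTGA shown above, and RefSeq windows with CACGTG gave 4 rises and 4 falls of 9 members in muscle, against 6 and 3 of 19 tested without it. Over all genes of muscle 25.7% were called higher and 24.8% lower. The rises with CACGTG include Mcoln2, which passed the filter only through the transgenic arms.

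In the V0 sector Atp6v0e was higher (8.71 ± 0.536 to 13.5 ± 0.906 CPM, log2 change 0.64, SE 0.07, adjusted p = 1.91e-06) and its paralog Atp6v0e2 lower (25.1 ± 1.63 to 18.2 ± 2.03 CPM, log2 change -0.48, SE 0.07, adjusted p = 2.92e-05). Per kilobase, Atp6v0e went from 18.2% to 32.3% of the pair. Atp6v0a1 was lower (85.8 ± 10.7 to 61.4 ± 2.93 CPM, log2 change -0.48, SE 0.08, adjusted p = 8.82e-05), as was Atp6v0b (-0.24, SE 0.08), while Tcirg1 (0.13, SE 0.12) and Atp6v0d1 (0.15, SE 0.07) were not called. Atp6v0d2 was at 0.323, 0.0741, 0.133, 0.992, 0.0527 and 0.393 CPM in wild-type libraries 1 to 6 and at 2.201, 1.02, 0.540, 0.600 and 0.958 CPM in transgenic ones, with overlapping arms (log2 change 1.65, SE 0.63, adjusted p = 0.0385), and 7 of the 17 fits with 1 library left out lost its call. Atp6v0b shares 11.8% of its exon bases with the antisense gene Gm12841.

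Of the hydrolases 4 of 5 were higher and 1 lower. Glb1 was at 1.595 to 2.695 CPM (median 2.32) in wild type and 4.11, 4.76, 3.94, 4.02 and 3.44 CPM with the transgene (log2 change 0.87, SE 0.13, adjusted p = 2.96e-05), and Gusb at 8.90 to 11.2 CPM (median 9.79) against 16.5, 19.4, 15.2, 14.2 and 13.9 CPM (log2 change 0.69, SE 0.07, adjusted p = 1.42e-06). Lipa (0.57, SE 0.14) and Hexa (0.39, SE 0.09) were higher and Gaa, whose loss causes the glycogen storage disease of muscle, was lower (167 ± 22.3 to 134 ± 8.00 CPM, log2 change -0.32, SE 0.08, adjusted p = 0.00264). Lamp2 rose (56.2 ± 5.22 to 81.8 ± 3.71 CPM, log2 change 0.54, SE 0.07, adjusted p = 7.01e-06) and Lamp1 fell (486 ± 32.7 to 384 ± 22 CPM, log2 change -0.34, SE 0.06, adjusted p = 0.000227). Mcoln2 was higher (1.299, SE 0.38) at 0.204 to 0.350 CPM, Mcoln1 lower (-0.19, SE 0.07), a call lost in 7 of the 17 fits that leave out 1 library, and Gpnmb, Npc1 and Npc2 were not called. Gpnmb was at 5.48, 3.85, 1.303, 13.3, 0.949 and 3.13 CPM in wild-type muscle and 6.87, 8.43, 5.68, 9.57 and 8.60 CPM with the transgene, with 1 wild-type library above all others.

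Tfeb had the most negative change of the 35 members tested in muscle. It lay at 51.5, 52.1, 57.5, 53.8, 54.3 and 48.9 CPM in wild-type libraries 1 to 6 and at 30.3, 31.4, 29.2, 26.8 and 29.8 CPM in the 5 vehicle-treated transgenic libraries (log2 change -0.85, SE 0.07, adjusted p = 1.49e-07). The arms stood apart with no overlap. Tfe3 (-0.02, SE 0.05) and Mitf (0.02, SE 0.06) were not called, and the share of Tfeb in the summed level of the 3 factors per kilobase went from 73.8% to 61.1%. In wild type, Tfeb held 15.8% of this sum in cortex, 29.0% in spinal cord and 73.8% in muscle.

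**Figure D5:**
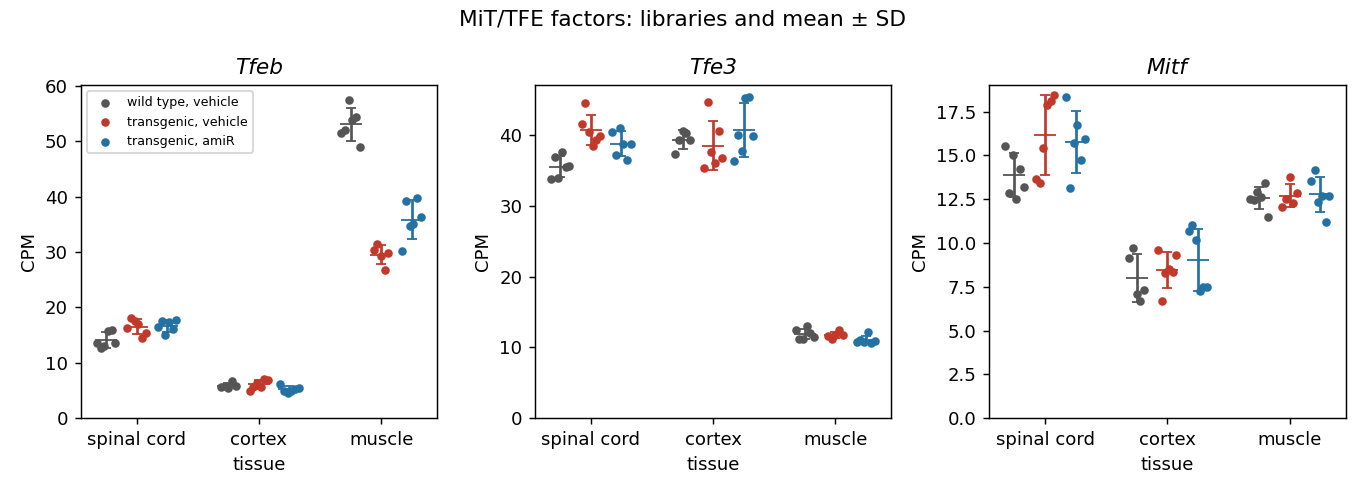
CPM of Tfeb, Tfe3 and Mitf in each library by tissue and arm, with bars for the mean ± SD and axes that start at 0. Muscle Tfeb lies at 48.9 to 57.5 CPM in wild type, 26.8 to 31.4 with vehicle and 30.1 to 39.8 with treatment, while Tfe3 and Mitf overlap between the arms of muscle.

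Scaling bears on the muscle calls. With library size alone in place of TMM, the median change of all genes moved to 0.35 and the share of calls that were higher went from 50.9% to 87.7%. Relative to library size, 26 members were called higher and 2 lower, and these 2 were Tfeb and Atp6v0e2. The calls of Atp6v0a1, Atp6v1g1 and Lamp1 were then lost with the sign kept, and those of Atp6v0b, Gaa and Mcoln1 changed sign. Of the members not called with TMM, Atp6v0a2, Atp6v0c, Atp6v1b2, Atp6v1f, Atp6ap1, Npc2 and Tfe3 changed sign too.

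The wider lists of muscle are set against 25.7% of all genes called higher and 24.8% lower. The hydrolase, membrane, sorting and autophagy lists lay near those shares. Of 31 further hydrolases, 9 were higher and 6 lower, with Galns, which degrades keratan and chondroitin sulfate (1.10 ± 0.111 to 6.13 ± 0.945 CPM, 2.48), Dnase2a (1.07) and Ppt1 (0.45) first. Further membrane proteins gave 5 higher and 4 lower of 18, with Mfsd8 (-0.51), Slc17a5 (0.38) and Laptm5 (1.29) first. Further V-ATPase and assembly genes gave 4 and 2 of 9, and Dmxl2 (0.79), Tmem9 (1.16) and Rogdi (0.45) were higher. Of the 18 regulators 4 were higher and 8 lower. The calcineurin subunits Ppp3cb (212 ± 16.9 to 122 ± 20.2 CPM, -0.83) and Ppp3r1 (-0.46), of the phosphatase that acts on TFEB, were lower, as was the Rag GTPase Rragd (217 ± 20.4 to 121 ± 10.6 CPM, -0.84). Sorting genes gave 2 and 2 of 9, with Igf2r (0.78), Gga1 (-0.33) and Gnptg (-0.46) first, and autophagy genes 2 and 3 of 10, with Gabarapl1 (0.82), Map1lc3b (-0.34) and Uvrag (0.37) first.

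Cell type markers moved in muscle as well, where 25.7% of all genes were called higher and 24.8% lower. All 12 macrophage genes were higher (sums 10.8 to 38.1 CPM in wild type, 57.3 to 67.9 with the transgene), all 6 fibroblast genes were higher (246 to 728 against 930 to 1897), and 7 of 8 muscle fibre genes were lower and 1 higher (64108 to 84141 against 48085 to 55221). Their part in the members' changes was not tested.

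Treatment gave no called member in muscle, where 0.767% of genes were called higher and 0.354% lower (edgeR). At an unadjusted p under 0.05 there were 12 of 35 members and 3234 of the 16949 genes. DESeq2 called 5 members and 969 of all genes. Tfeb was nearest, at 30.1, 39.1, 34.7, 35.0, 39.8 and 36.4 CPM in treated libraries 1 to 6 (log2 change 0.28, SE 0.07, adjusted p = 0.052), with 1 treated library inside the vehicle range. Glb1 had log2 change -0.48, SE 0.12, adjusted p = 0.0635, and Gusb log2 change -0.25, SE 0.07, adjusted p = 0.0874. Without wild-type library 3, which enters through the shared estimates of the spread and the sex term, 5 members were called, and without treated library 1, 1 was. Over all genes, the 17 fits that leave out 1 library gave 0 to 965 calls, against 190 with all libraries. Against wild type, treated muscle had 10 members higher and 6 lower, where 17.5% and 17.7% of genes were called. Higher were Atp6v1a (0.94, SE 0.11), Atp6ap2 (0.85, SE 0.09), Atp6v1e1, Atp6v1h, Gusb, Glb1, Atp6v0e, Lamp2, Lipa and Hexa, and lower were Tfeb (-0.56, SE 0.06), Atp6v0a1, Atp6v0e2, Atp6v0b, Gaa and Lamp1. With library size alone 21 members were higher and 1 lower, and the share of all calls that were higher went from 49.8% to 85.4%. In the comparison of treated with vehicle-treated muscle it went from 68.4% to 12.6%, with 5 members lower.

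Markers of other cells moved between the muscle arms as well, where treatment gave 0.767% of all genes called higher and 0.354% lower. The summed CPM of the 12 macrophage genes was 57.3 to 67.9 with vehicle and 22.5 to 53.5 with treatment, with 0 of 12 called. The fibroblast genes summed to 930 to 1897 and 347 to 847 CPM, with 1 of 6 lower (Col3a1), and the muscle fibre genes to 48085 to 55221 and 57195 to 65169 CPM, with 2 of 8 higher (Actn3 and Ckm). None of the 3 sums overlapped between the arms. Against wild type, treated muscle had 17.5% of all genes called higher and 17.7% lower. Of the markers, 4 of 12 macrophage genes were higher, 5 of 8 fibre genes lower and 0 of 6 fibroblast genes called. The part of these cells in the members' values was not tested.

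In cortex none of 33 members was called with the transgene, where 0.0148% of the 20278 genes were called higher and 0.00986% lower (edgeR). At an unadjusted p under 0.05 there were 0 members and 752 of all genes, and DESeq2 called 0 members and 9 of all genes. Atp6v0d2, Mcoln2 and Mcoln3 were too scarce to be tested. Gusb lay at 13.2 ± 0.494 and 14.1 ± 1.32 CPM and Hexa at 37.7 ± 2.29 and 39.1 ± 3.22 CPM (SD, n = 5 and 6), and Gpnmb at 0.287 to 1.24 and 0.555 to 1.15 CPM. The microglia and macrophage sums were 293 to 347 and 287 to 414 CPM, with none of 12 genes called. Treatment gave no called member either, where 0.00986% of genes were called in each direction. There 15 of 33 members had an unadjusted p under 0.05, as had 2302 of the 20278 genes. DESeq2 called 6 members, all higher, and 364 of all genes. Without vehicle-treated library 3, edgeR called 3 members. The 17 fits that leave out 1 library gave 1 to 80 calls over all genes.

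Treated cortex against wild type gave 3 higher members, where 0.666% of genes were called higher and 0.459% lower. Atp6v1b2 lay at 477, 449, 468, 444 and 449.9 CPM in the 5 wild-type libraries and at 552, 622, 569, 549.6, 589 and 562 CPM in the 6 treated ones (log2 change 0.32, SE 0.07, adjusted p = 0.0408). Atp6v1e1 lay at 197, 201, 209, 193 and 196 against 229.5, 248, 255, 229.5, 238 and 242 CPM (log2 change 0.26, SE 0.05, adjusted p = 0.0408), and Atp6v0d1 at 133, 136, 143, 139 and 135 against 150.2, 162, 165, 157, 158 and 163 CPM (log2 change 0.21, SE 0.05, adjusted p = 0.046). The arms did not overlap in 11 members, all with treated cortex higher, where 3.13% of genes did so. They included 8 of 9 V1 genes, all but Atp6v1g1, and Atp6v0a1, Atp6v0c and Atp6v0d1 of V0. The 3 calls were lost with library size alone, without a filter, with RIN in the model, without mice older than 36 weeks and without any 1 of the 5 wild-type libraries, vehicle-treated library 1 or treated libraries 2, 3, 4, 5 or 6. Without vehicle-treated library 5, 1 member was called, and without vehicle-treated library 2, 5 were. Calls over all genes ranged from 11 to 493 in the 17 fits that leave out 1 library, against 228 with all libraries. Of 18 regulators Rraga alone was higher (log2 change 0.24, SE 0.05, adjusted p = 0.0477), and no gene of the other lysosomal lists was called.

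The difference between tissues was itself tested in a joint model of the 3 tissues with 22316 genes. The change with the transgene differed between spinal cord and cortex in 15 members, 10 more positive and 5 more negative in spinal cord, where 5.45% and 4.23% of genes were called. The largest positive differences were those of Gpnmb (7.70, SE 0.96), Gusb (1.68, SE 0.17), Hexa (1.39, SE 0.16) and Tcirg1 (0.96, SE 0.15). More negative in spinal cord were Atp6v1b2 (-0.44, SE 0.09), Gaa, Atp6v0a1, Atp6v1g2 and Atp6v1h. Atp6v0d2, Mcoln2 and Mcoln3 were too scarce in cortex to be tested there and passed the joint filter only through transgenic arms. Of these Mcoln2 was called (3.74, SE 0.76), which supports nothing, and the other 14 calls do not include them. Atp6v0d2 (8.36, SE 3.596) and Mcoln3 (5.37, SE 2.14) were not called, with adjusted p = 0.147 and 0.111 at cortex counts of 0 to 10 a library.

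Between spinal cord and muscle the change with the transgene differed in 23 members, 13 more positive and 10 more negative in spinal cord, against 14.5% and 16.5% of genes. Atp6v1a (-1.57, SE 0.13), Atp6ap2 (-1.20, SE 0.10), Atp6v1e1 (-0.98, SE 0.10) and Atp6v1h (-0.89, SE 0.09) were the most negative. Gpnmb (7.42, SE 0.82), Gusb (1.07, SE 0.17), Tfeb (1.04, SE 0.11), Hexa (1.03, SE 0.16), Atp6v1g1 (0.62, SE 0.09) and Lamp1 (0.60, SE 0.08) were among the positive ones. Atp6v0d2 (7.37, SE 0.99), Mcoln2 and Mcoln3 (7.81, SE 2.07) were called too but passed the filter only through transgenic arms, Mcoln3 on muscle libraries with few or no counts, and without them 20 members were called, 10 in each direction.

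The change with treatment differed between spinal cord and cortex in 1 member, Gpnmb (log2 change -3.97, SE 0.78, adjusted p = 0.0299), where 0% of genes were more positive in spinal cord and 0.0672% more negative. In cortex Gpnmb lay at 0.555 to 1.15 CPM with vehicle. Treated cortex libraries 1 to 6 were at 2.41, 4.93, 0.911, 0.503, 2.05 and 0.399 CPM, from 32 to 397 counts. The difference takes in these cortex values as well as the fall in spinal cord. No member was called without treated spinal cord library 4 or 5, vehicle-treated cortex library 1, 2 or 6 or treated cortex library 5, and 4 were called without treated spinal cord library 1. Fits that leave out 1 library gave 2 to 150 calls over all genes for this contrast. The change with treatment differed between spinal cord and muscle in 6 members, where 1.3% and 1.74% of genes were called. Atp6v1a (0.45, SE 0.13) and Atp6v1h (0.36, SE 0.09) were more positive in spinal cord, and Gpnmb (-2.85, SE 0.72), Tcirg1 (-0.55, SE 0.16), Atp6v1g1 (-0.35, SE 0.09) and Atp6v0e2 (-0.34, SE 0.08) more negative. Without vehicle-treated muscle library 1 or treated muscle library 5, 3 members were called, and fits of this kind gave 436 to 833 calls over all genes. None of these 6 was called without mice older than 36 weeks. Libraries of different tissues were counted as independent in these tests.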

How the data were processed

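For 52 libraries of poly(A) RNA the authors deposited expected counts by gene from RSEM, made with bcl2fastq 2.20, STAR 2.7.2d and RSEM 1.3.2 on GRCm38 and GRCh38, with DESeq2 1.34.0 also named, per the submitters' processing notes. The strand setting and annotation release are not given in the sources used here. Counts of 55401 mouse genes were rounded. Human and vector rows, at most 0.167% of a library, stayed out of the library sizes.

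Each tissue was fitted in edgeR 4.0.16 (R 4.3.3, limma 3.58.1) with TMM, filterByExpr, arm and sex, and glmQLFTest, and p-values were adjusted by Benjamini-Hochberg over all genes of the tissue. A joint model of the 3 tissues gave the differences between tissues. CPM per kilobase used exon lengths from GENCODE. Alternatives were RLE, library size alone, DESeq2 1.42.0, no filter, no sex term, RIN, no mice over 36 weeks, the replicate block, the 4 conflicting libraries and leaving out each library. Same-numbered libraries of different arms had deviations that correlated between -0.30 and 0.49, so the numbers do not pair them. Replicates all differed by more than counting noise. The fits were tested on simulated data.

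The members and lists were chosen with earlier results of these data known. All members could be named, and from each pathway list up to 3 called genes with the smallest adjusted p. Promoter windows came from RefSeq on GRCm38.p6.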

Additional observations from a re-analysis of the deposited data

Results flagged for a closer look

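Among 312 sets of a member in the libraries of 1 group, 15 held a library whose gap to its nearest neighbour was above the 95% critical value of Dixon's ratio. Chance alone gives about 1 such set in 20. In muscle Tcirg1 lay at 6.73 CPM in treated library 2, above the next at 4.80, Atp6v0d2 lay at 0.992 CPM in wild-type library 4, above the next at 0.393, and Atp6v0d2 lay at 2.201 CPM in vehicle-treated transgenic library 1, above the next at 1.02. In the same tissue Atp6v1e1 lay at 82.6 CPM in treated library 2, below the next at 116, Atp6v1g1 lay at 261 CPM in wild-type library 3, above the next at 208, and Lamp2 lay at 46.4 CPM in wild-type library 3, below the next at 56.3. Muscle also held 2 others: Gpnmb lay at 13.3 CPM in wild-type library 4, above the next at 5.48, and Tfe3 lay at 12.2 CPM in treated library 4, above the next at 11.1. In cortex Atp6v0b lay at 129 CPM in vehicle-treated transgenic library 2, above the next at 113, Atp6v0e2 lay at 179 CPM in treated library 1, below the next at 195, and Glb1 lay at 20.9 CPM in treated library 3, below the next at 22.9. Tfeb lay at 6.80 CPM in wild-type library 4, above the next at 5.81. In spinal cord Mcoln3 lay at 2.36 CPM in vehicle-treated transgenic library 1, below the next at 3.52, Gpnmb lay at 0.250 CPM in wild-type library 2, below the next at 0.631, and Npc1 lay at 196 CPM in treated library 4, above the next at 154.

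In 45 results the change itself differed between tissues in the joint test (edgeR, adjusted p under 0.05), and each value here is the change in spinal cord minus that in the other tissue, in log2 ± SE. For the transgene against cortex, it was negative in V-ATPase genes and Gaa: Atp6v1b2 -0.44 ± 0.09, Gaa -0.35 ± 0.11, Atp6v0a1 -0.33 ± 0.09, Atp6v1g2 -0.29 ± 0.09 and Atp6v1h -0.26 ± 0.09. It was positive in hydrolases, membrane proteins, Npc2, a pair of V0 genes and the channel Mcoln2: Atp6v0e 0.42 ± 0.10, Lamp2 0.47 ± 0.12, Glb1 0.49 ± 0.12, Npc2 0.55 ± 0.10, Lipa 0.78 ± 0.15, Tcirg1 0.96 ± 0.15, Hexa 1.39 ± 0.16, Gusb 1.68 ± 0.17, Mcoln2 3.74 ± 0.76 and Gpnmb 7.70 ± 0.96. Mcoln2 passed the joint filter only through transgenic arms, so its value supports nothing. For the transgene against muscle, the negative values were those of V-ATPase genes and Glb1: Atp6v1a -1.57 ± 0.13, Atp6ap2 -1.20 ± 0.10, Atp6v1e1 -0.98 ± 0.10, Atp6v1h -0.89 ± 0.09, Atp6v1g2 -0.40 ± 0.09, Glb1 -0.33 ± 0.12, Atp6v1b2 -0.30 ± 0.09, Atp6v0d1 -0.30 ± 0.08, Atp6v1c1 -0.29 ± 0.08 and Atp6v0e -0.27 ± 0.10. The positive values were Atp6v0a2 0.20 ± 0.07, Atp6v0e2 0.34 ± 0.08, Lamp1 0.60 ± 0.08, Atp6v1g1 0.62 ± 0.09, Npc2 0.63 ± 0.10, Tcirg1 0.90 ± 0.16, Hexa 1.03 ± 0.16, Tfeb 1.04 ± 0.11, Gusb 1.07 ± 0.17, Mcoln2 2.18 ± 0.58, Atp6v0d2 7.37 ± 0.99, Gpnmb 7.42 ± 0.82 and Mcoln3 7.81 ± 2.07. Of these, Mcoln2, Atp6v0d2 and Mcoln3 passed the joint filter only through transgenic arms, so their values support nothing. For treatment, spinal cord minus cortex passed for Gpnmb -3.97 ± 0.78. For treatment, spinal cord minus muscle passed for Gpnmb -2.85 ± 0.72, Tcirg1 -0.55 ± 0.16, Atp6v1g1 -0.35 ± 0.09, Atp6v0e2 -0.34 ± 0.08, Atp6v1h 0.36 ± 0.09 and Atp6v1a 0.45 ± 0.13. The libraries behind these values are the same in several contrasts. Cell type markers that moved in the same tissues are given in the report, and their part was not tested.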

How the results depend on the processing

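Of 140 called results of members, 80 were called in the same direction under every alternative, and of 316 not called, 88 were called under at least 1. Leaving out 1 library at a time gave 23 to 28 called members for the transgene in spinal cord, 5 to 16 for treatment there and 15 to 19 for treated against wild type. In cortex it gave 0 to 0, 0 to 3 and 0 to 5, and in muscle 18 to 20, 0 to 5 and 11 to 17, in the same order. For the change with the transgene, spinal cord minus cortex gave 12 to 18 and minus muscle 22 to 25, and for treatment 0 to 4 and 3 to 8. Calls over all genes moved too, with 6704 to 7909, 242 to 2539 and 4350 to 5337 in spinal cord. In cortex they were 4 to 6, 1 to 80 and 11 to 493, and in muscle 7775 to 8695, 0 to 965 and 5050 to 6359. Between tissues they were 1683 to 2502 and 6316 to 7108 for the transgene, and 2 to 150 and 436 to 833 for treatment. The causes of these shifts were not tested. The replicate numbers do not pair the samples. With the number as a replicate block, called members were 25, 10 and 15 in spinal cord, 0 in treated against wild-type cortex, 18 and 13 against wild type in muscle, 11 and 24 for the transgene between tissues, and 2 for treatment between spinal cord and muscle.

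For treatment in spinal cord, where 12 members were called, there were 6 with library size alone, 7 with RIN in the model, 2 without mice older than 36 weeks and 0 with 4 libraries grouped by library name. Over all genes the same comparison had 1037 calls, with 558, 359, 96 and 0 under these, 2229 with DESeq2, 497 without a filter and 555 with the block. In treated against wild-type cortex 3 calls became 11 with DESeq2 and 0 with library size alone, without a filter, with RIN or without older mice, and 228 calls over all genes became 1381, 24, 42, 11 and 9. For treatment in cortex DESeq2 called 6 members (364 of all genes against 4, which became 9 without a filter, 10 without a sex term, 7 with RIN, 8 with the block and 0 without older mice), and for the transgene there 9 of all genes against 5. For treatment in muscle there were 5 with library size alone, 5 with DESeq2 and 3 with RIN (596, 969 and 474 of all genes against 190, which became 295 without a filter, 3 without a sex term, 1 without older mice and 2 with the block). Treated against wild-type muscle gave 9 with RIN. Treatment in spinal cord minus cortex gave 2 with DESeq2 and 0 by library name, and minus muscle 2 without a filter, 0 without older mice, 3 without the 4 conflicting libraries and 2 by library name. The transgene effect in spinal cord minus cortex had 2159 calls over all genes, 3559 with DESeq2 and 1378 by library name. That of treatment minus cortex had 15, with 165 by DESeq2, 8 with library size alone, 6 with the block, 8 without the 4 libraries and 0 by library name. That of treatment minus muscle had 678, with 1035 by DESeq2, 385 without a filter, 375 without a sex term, 139 without older mice, 220 with the block, 365 without the 4 libraries and 215 by library name.

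Among results called in the main fit or in the alternative, signs turned only with library size alone, in 17 cases. Results called in neither changed sign 402 times over all alternatives. For the transgene in muscle the log2 changes became 0.25 for Atp6v0a2, 0.10 for Atp6v0b, 0.24 for Atp6v0c, 0.21 for Atp6v1b2, 0.28 for Atp6v1f, 0.30 for Atp6ap1, 0.020 for Gaa, 0.15 for Mcoln1, 0.33 for Npc2 and 0.31 for Tfe3. For treated against wild-type muscle they became 0.13 for Atp6v0a2, 0.0077 for Atp6v0b, 0.19 for Atp6v0c, 0.19 for Atp6v1c1, 0.024 for Lamp1 and 0.0010 for Gaa, and for spinal cord minus muscle -0.0080 for Atp6v0a2. At 66.5 M counts or more, depth limits Atp6v0d2, Mcoln2 and Mcoln3 in wild-type tissue and cortex, where libraries held few or no counts.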

Other observations

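The wild-type tissues carried the members in different proportions, given here as CPM per kilobase of exon and without a test, since tissues were scaled separately. Lamp1 led in spinal cord at 222.4 ± 20.9 (SD, n = 6), followed by Atp6v1b2 at 114.5 ± 3.79 and Atp6v1g2 at 96.5 ± 5.64. In cortex the order was Atp6v1g2 at 133.4 ± 5.24, the ring subunit Atp6v0c at 108.5 ± 5.37 and Lamp1 at 105.1 ± 4.57 (SD, n = 5), and the last 2 do not differ beyond their spread. In muscle Atp6v1g1 at 183.5 ± 23.2 and Lamp1 at 181.9 ± 12.2 (SD, n = 6) lay within each other's spread, and Gaa came next at 34.9 ± 4.67.

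Paralogs showed the tissue in their shares of the summed level per kilobase. Atp6v1g2, the G subunit of neurons, made 70.5% of the G level in wild-type cortex, 58.8% in spinal cord and 0.402% in muscle. Atp6v0e2 made 92.9% of the e level in both nervous tissues and 81.8% in muscle. Lamp1 held 92.6% to 96.9% of the Lamp level in the 3 tissues. Mcoln3, Mcoln2 and Atp6v0d2 had the lowest mean levels in all 3.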
